A study of Mus musculus with 15 samples.

Results

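Transcript levels of 10 Sox genes that lie outside group B1 of the family were followed through differentiation of mouse embryonic stem (ES) cells and through depletion of Cbx7. The members were taken by name: every non-control probe of the array whose gene name in the scanner files was Sox4, Sox5, Sox6, Sox7, Sox8, Sox9, Sox10, Sox11, Sox17 or Sox18. They comprised 15 probes of 39429 and 10 gene names of 30905. A probe was kept for testing where the scanner software called it well above background on at least 3 arrays of a group, which left 14 of the 15 probes and all 10 genes, of 21217 gene names with a kept probe.

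Total RNA was measured on 15 Agilent 1-colour arrays in 4 groups. EB9 KD33 (4 arrays) were embryoid bodies, three-dimensional aggregates of differentiating ES cells, labelled as depleted of Cbx7 with KD33. EB9 control (4 arrays) were embryoid bodies with the treatment given as none, ES KD33 (4 arrays) were ES cells depleted of Cbx7, and ES control (3 arrays, biological replicates 2, 3 and 4) were ES cells with the treatment given as none. The series' design text calls the ES controls shCtr, a control short hairpin RNA. EB9 is the labels' own name for the bodies, and strain, cell line and day of differentiation are not given in the sources used here. A single depletion, KD33, was used, so an effect of Cbx7 loss and an effect particular to KD33 cannot be told apart. Cbx7 is the chromodomain subunit of a canonical Polycomb complex that holds developmental regulators in a repressed state in ES cells.

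SOX proteins bind the minor groove of DNA through an HMG box related to that of SRY and bend it. Group C (Sox4 and Sox11) holds activators of progenitor and early neuronal programmes. Group D (Sox5 and Sox6) holds proteins that lack an activation domain of their own, dimerise through a coiled coil and assist Sox9 in cartilage. Group E (Sox8, Sox9 and Sox10) acts in neural crest, glia, gonad and cartilage, and group F (Sox7, Sox17 and Sox18) in blood vessels, with Sox7 and Sox17 also in endoderm.

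A level below is the log2 processed signal of a probe minus the 75th percentile of its array, so that 0 is the signal at that percentile. Levels are compared between arrays of 1 probe and not between probes. Differences were tested in limma over all 27248 kept probes with Benjamini-Hochberg adjustment, two-sided, and passed at an adjusted p under 0.05. SE is the moderated standard error of a log2 difference. Overlap of groups is described probe by probe. The share of all probes whose groups did not overlap is not given. A lack of overlap therefore does not show how unusual a member is. In these bulk samples, fewer cells of a type and less RNA per cell cannot be told apart.

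The arrays lay on 4 slides with 1 array of each group on slides 1 to 3 and no ES control on slide 4. Because each group kept 1 position on every slide, group cannot be told apart from position. Arrays of a slide deviated together from their group means, so differences within a slide and a fit with the slide as a block are given beside results where they change a call. The Cbx7 probe A_55_P1980401 moved with the slide: its level was −7.85, −4.44, −4.61 and −7.37 in ES KD33 1 to 4, against −6.3, −3.14 and −3.04 in ES control 2 to 4. Within the 3 slides that held both groups, ES KD33 was lower by a log2 difference of −1.56, −1.3 and −1.57. The difference of group means, which includes ES KD33 4 on slide 4, was −1.91 (adjusted p = 0.256 in limma without the block) and −1.41 with it (adjusted p = 1e-04). ES KD33 1 and ES KD33 4 were not well above background for this probe, whereas all 3 ES control arrays were. In EB9, where 2 of 4 arrays of each group were above background, the difference was −0.27 (adjusted p = 0.92; 0.221 with the block). The other kept Cbx7 probe, above background on every array, differed by −0.13 in ES cells (adjusted p = 0.733) and −0.16 in EB9 (adjusted p = 0.708). All 10 markers of ES cells tested were lower in EB9 control than in ES control, and their mean level lay between −0.24 and 0.23 on EB9 arrays, against 4.37 to 4.59 on ES arrays. Fibroblast and mesenchyme markers averaged 2.17 to 3.01 on EB9 arrays, against −4.98 to −4.67 on ES arrays. Col3a1, Postn, Dcn and Lum were not well above background on any ES array. Of the 8 markers, 7 were higher in EB9 control than in ES control, and Thy1 was lower (−3.84). Of 9 measured markers of differentiated bodies, 7 were higher in EB9 control than in ES control and none was lower (median 3.87). In KD33, 6 of them were higher in EB9 and 2 were lower, T (−1.44) and Fgf8 (−1.07).

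Where a gene had several probes, their positions are given. The letters of a probe do not by themselves show which transcript it read. Probes are 60 bases long and complementary to the labelled copy of the transcript. Coordinates are mouse build mm9 as the files give them, and whether a probe lies in a coding exon or a UTR was not analysed here. Bases 1 to 30 of the probes of the 3 genes whose probes gave different answers are printed 5′ to 3′, with no part capitalised. The Sox17 probes lie at chr1:4481503-4481562 and chr1:4481038-4481097, with starts 465 bases apart. The Sox11 probes lie at chr12:28020087-28020146 and chr12:28019541-28019600, with starts 546 bases apart. The Sox5 probes are given at chr6:143776945-143776971 and chr6:143781520-143781579, all on the minus strand.
Sox17 A_55_P2157023: ctcactgacttattccatttcttgaaagtg
Sox17 A_55_P2094706: cccacttcccacaaaatttgcctttaattc
Sox11 A_55_P2094721: gcaggagtttttcacagaggaatacatttg
Sox11 A_52_P160955: aaccattctgtattgaaactcttgctataa
Sox5 A_55_P2156905: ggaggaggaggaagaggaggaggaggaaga
Sox5 A_51_P500318: ttacaagcaaaaacgtcatcaagaagaaga
The letters of Sox5 probe A_55_P2156905 set it apart from the others. It consists of 35 G and 25 A with no C or T, and the files align only 27 of its 60 bases. On the array 23 of 39429 probes hold only A and G.

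Differentiation changed most of these genes by more than the spread between arrays. In controls, 8 of the 10 genes were higher in EB9 than in ES cells (Sox4, Sox6, Sox7, Sox8, Sox9, Sox11, Sox17 and Sox18), where 33.6% of all genes were higher. Sox10 was lower, as were 42.3% of all genes, and Sox5 did not pass. In KD33 the same 8 genes were higher, where 34% of all genes were, and Sox5 and Sox10 were lower, where 44.7% were. Of the 8, Sox6 and Sox8 were kept for testing through their EB9 arrays only. Sox8 was above background on no ES array and Sox6 on 1 ES control array alone. Their 2 calls therefore rest on ES values that were mostly or wholly below background. Both comparisons are set side by side below, each with its own arrays.

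**Figure D1:**
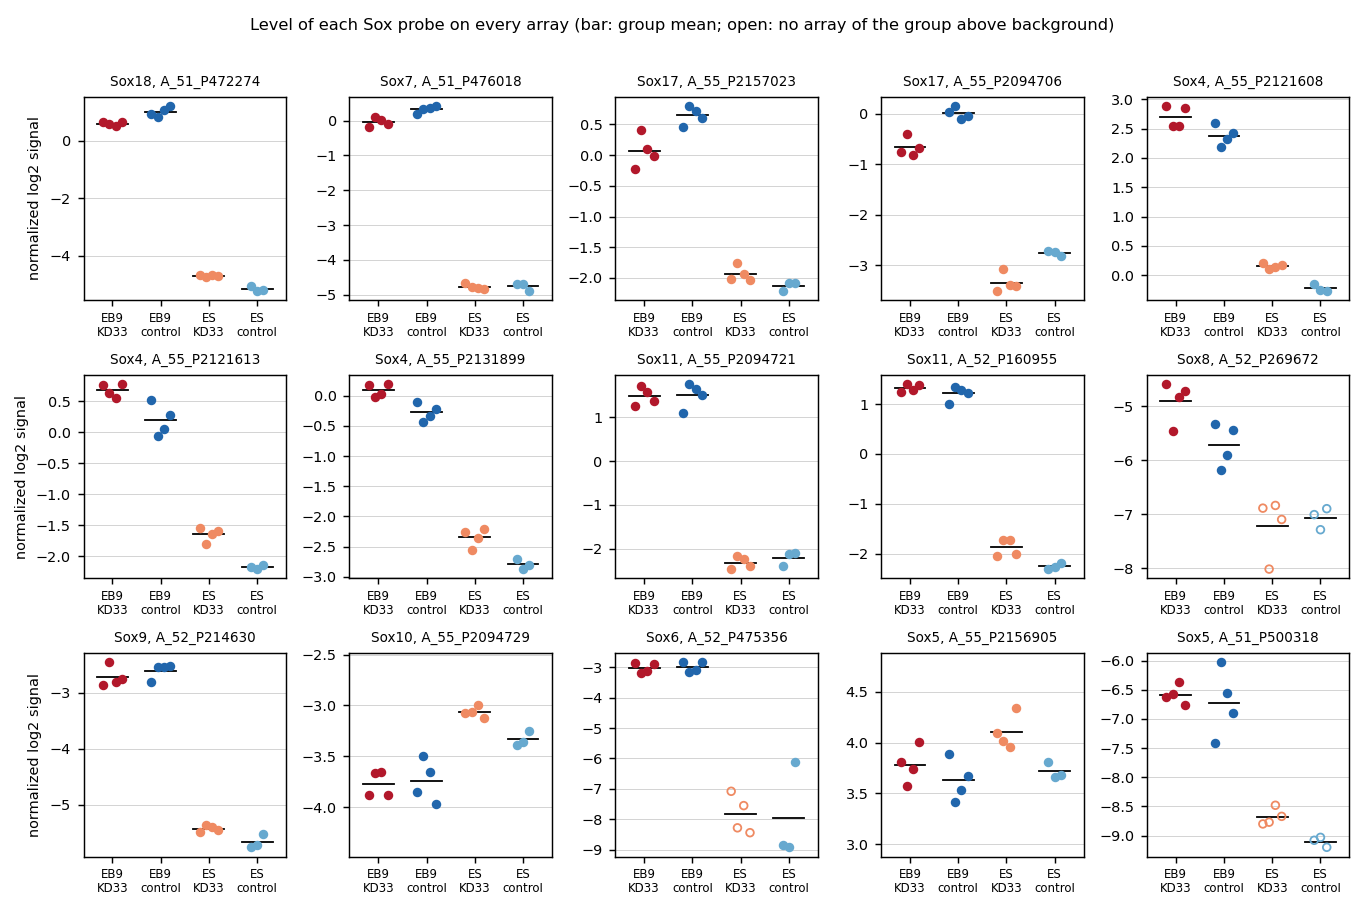
Normalized log2 signal of each of the 15 Sox probes (vertical axis, scaled per panel) on every array, by group from left to right EB9 KD33, EB9 control, ES KD33 and ES control; bars are group means and open points mark groups in which no array was well above background. Sox18, Sox7, Sox17, Sox4, Sox11 and Sox9 lie higher on every EB9 array than on any ES array, while the Sox5 probe A_55_P2156905 stays between 3.42 and 4.34 throughout.

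Group F, the vascular and endodermal factors, held the 2 members with the widest range of group means, Sox18 (6.17) and Sox7 (5.09). Sox6 came close to Sox7 (4.97), and its range rests on ES levels mostly below background, so the order of these 2 is not settled. Sox18 (A_51_P472274, chr2:181404789-181404848), a factor of blood and lymphatic vessels, read 0.65, 0.57, 0.5 and 0.64 in EB9 KD33 and 0.92, 0.82, 1.07 and 1.21 in EB9 control. The ES levels were −4.68, −4.75, −4.69 and −4.71 in ES KD33 and −5.06, −5.23 and −5.2 in ES control. None of the 4 groups overlapped another, and the order from high to low was EB9 control, EB9 KD33, ES KD33 and ES control. EB9 exceeded ES cells by 5.3 on the log2 scale in KD33 (39.3-fold; SE 0.08; adjusted p = 4.71e-15) and by 6.17 in control (71.9-fold; SE 0.08; adjusted p = 2.84e-15).

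Sox7 (A_51_P476018, chr14:64569419-64569478), a factor of early endothelium and extraembryonic endoderm, read −0.2, 0.09, 0.01 and −0.09 in EB9 KD33 and 0.18, 0.33, 0.37 and 0.42 in EB9 control. In ES cells it read −4.65, −4.77, −4.8 and −4.84 in KD33 and −4.7, −4.68 and −4.89 in control. The EB9 groups were apart from each other, whereas the ES groups overlapped. The EB9 minus ES difference was 4.71 in KD33 (26.2-fold) and 5.08 in control (33.8-fold), SE 0.08 for each.

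Sox17, a factor of definitive endoderm, extraembryonic endoderm and arteries, was read by probes that shared the differentiation change but not the ES levels. Probe A_55_P2157023 gave −0.22, 0.4, 0.1 and −0.01 in EB9 KD33 and 0.46, 0.8, 0.72 and 0.6 in EB9 control. The same probe gave −2.02, −1.76, −1.94 and −2.03 in ES KD33 and −2.21, −2.08 and −2.08 in ES control. Here ES KD33 lay slightly above ES control without overlap. Probe A_55_P2094706 gave −0.76, −0.4, −0.82 and −0.68 in EB9 KD33 and 0.04, 0.16, −0.1 and −0.05 in EB9 control. Its ES levels were −3.51, −3.07, −3.4 and −3.41 in KD33 and −2.71, −2.73 and −2.82 in control. Here ES KD33 lay below ES control, again without overlap. In control, EB9 exceeded ES cells by 2.77 (SE 0.13) and 2.76 (SE 0.12) on these probes, 6.81-fold and 6.79-fold. In KD33 the differences were 2.01 (SE 0.12, 4.02-fold) and 2.68 (SE 0.11, 6.4-fold).

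In group C, Sox4, an activator expressed in many progenitors, had 3 probes that moved together, at chr13:29040826-29040885 (A_55_P2121608), chr13:29042856-29042915 (A_55_P2121613) and chr13:29044482-29044541 (A_55_P2131899). The brightest, A_55_P2121608, read 2.89, 2.54, 2.55 and 2.85 in EB9 KD33 and 2.6, 2.19, 2.32 and 2.42 in EB9 control. In ES cells it read 0.21, 0.11, 0.14 and 0.18 in KD33 and −0.15, −0.26 and −0.27 in control. The ES groups were apart, and the EB9 groups overlapped on this probe only of the 3. EB9 exceeded ES cells by 2.33 to 2.55 in KD33 and by 2.37 to 2.61 in control over the 3 probes, 5.02-fold to 5.84-fold and 5.18-fold to 6.1-fold.

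Sox11, its close relative in early neurons and progenitors, read 1.25, 1.4, 1.28 and 1.38 in EB9 KD33 and 1, 1.35, 1.28 and 1.22 in EB9 control by A_52_P160955. This probe read −2.04, −1.72, −1.72 and −2.01 in ES KD33, against −2.31, −2.27 and −2.18 in ES control. The ES groups were apart by this probe and overlapped by the other, A_55_P2094721, with −2.47, −2.18, −2.23 and −2.41 in ES KD33 and −2.39, −2.13 and −2.1 in ES control. The EB9 groups overlapped by both, and the second read 1.25 to 1.72 in EB9 KD33 and 1.11 to 1.76 in EB9 control. The EB9 minus ES differences were 3.2 and 3.81 in KD33 (9.2-fold and 14-fold, A_52_P160955 first) and 3.47 and 3.71 in control (11.1-fold and 13.1-fold).

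In group E, Sox9 (chr11:112648809-112648868), needed for cartilage and testis, has 10 spots of its probe on the array, averaged here. It read −2.86, −2.46, −2.81 and −2.75 in EB9 KD33 and −2.82, −2.55, −2.54 and −2.53 in EB9 control. In ES cells it read −5.48, −5.37, −5.39 and −5.46 in KD33 and −5.76, −5.72 and −5.53 in control. The EB9 groups overlapped and the ES groups did not. EB9 exceeded ES cells by 2.71 in KD33 (6.53-fold) and 3.06 in control (8.35-fold), with SE 0.09 and 0.1.

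Sox8 (chr17:25703094-25703153), which overlaps in function with Sox9 in testis, was not well above background on any ES array. It read −4.59, −5.46, −4.83 and −4.72 in EB9 KD33 and −5.33, −6.18, −5.91 and −5.44 in EB9 control, and all 8 of these arrays were above background. EB9 KD33 2, the lowest of its group, lay within the range of the controls. Against the lowest measurable signal of each ES array, EB9 was at least 3.25-fold higher in KD33 and at least 2.19-fold higher in control. These bounds were not tested. The limma differences, which use the ES values below background, were 2.31 in KD33 (adjusted p = 3.77e-06) and 1.36 in control (adjusted p = 0.000992).

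Sox10 (chr15:78985518-78985577), a regulator of neural crest and glia, was the member that went down. It read −3.88, −3.66, −3.65 and −3.88 in EB9 KD33 and −3.85, −3.5, −3.65 and −3.97 in EB9 control. The ES levels were −3.07, −3.06, −3 and −3.12 in KD33 and −3.39, −3.36 and −3.25 in control. Every EB9 array lay below every ES array. Sox10 was lower in EB9 by −0.71 in KD33 (SE 0.09; adjusted p = 1.22e-05) and −0.41 in control (SE 0.1; adjusted p = 0.00275), where the median of all probes was −0.17 and −0.13.

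In group D, Sox6 (chr7:122615418-122615477), which acts with Sox5 in cartilage and also in red cell maturation, read −2.86, −3.19, −3.12 and −2.89 in EB9 KD33 and −2.84, −3.17, −3.1 and −2.84 in EB9 control. These groups overlapped almost entirely. In ES cells only 1 of 7 arrays was above background, ES control 4 at −6.12; ES control 2 and 3 read −8.86 and −8.92 and the ES KD33 arrays −7.08, −8.28, −7.55 and −8.44. EB9 was at least 12.2-fold higher than ES cells in KD33. In control the measured difference was 4.97 (SE 0.55). Without ES control 4 no ES control array was above background, and EB9 was then at least 14.2-fold higher.

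For Sox5, the other group D gene, probe A_55_P2156905 read 3.81, 3.57, 3.74 and 4.01 in EB9 KD33 and 3.89, 3.42, 3.53 and 3.67 in EB9 control. In ES cells it read 4.09, 4.02, 3.96 and 4.34 in KD33 and 3.81, 3.66 and 3.68 in control. Its EB9 minus ES difference was −0.32 in KD33 (adjusted p = 0.0223) and −0.09 in control (adjusted p = 0.534). The KD33 call ended with quantile normalization (−0.1, adjusted p = 0.455), with the authors' deposited values (−0.07) and without ES KD33 4 (−0.24) or EB9 KD33 2 (−0.25). Of the 22 kept probes made only of A and G, this one included, 22 had a lower mean in EB9 in KD33 and 18 in control. Their medians were −0.45 and −0.33, where those of all probes were −0.17 and −0.13. Whether this probe reads Sox5 transcript was not tested.

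The other Sox5 probe, A_51_P500318, which aligns over all 60 bases, was left out of the tests. It was above background on 2 of 4 EB9 KD33 and 2 of 4 EB9 control arrays and on no ES array. The levels were −6.76 to −6.36 in EB9 KD33 and −7.41 to −6.03 in EB9 control. The ES levels, all below background, were −8.8 to −8.48 in KD33 and −9.2 to −9.03 in control. Against the lowest measurable signal of the ES arrays, EB9 was at least 1.03-fold higher in KD33 and at least 1.1-fold higher in control.

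**Figure D2:**
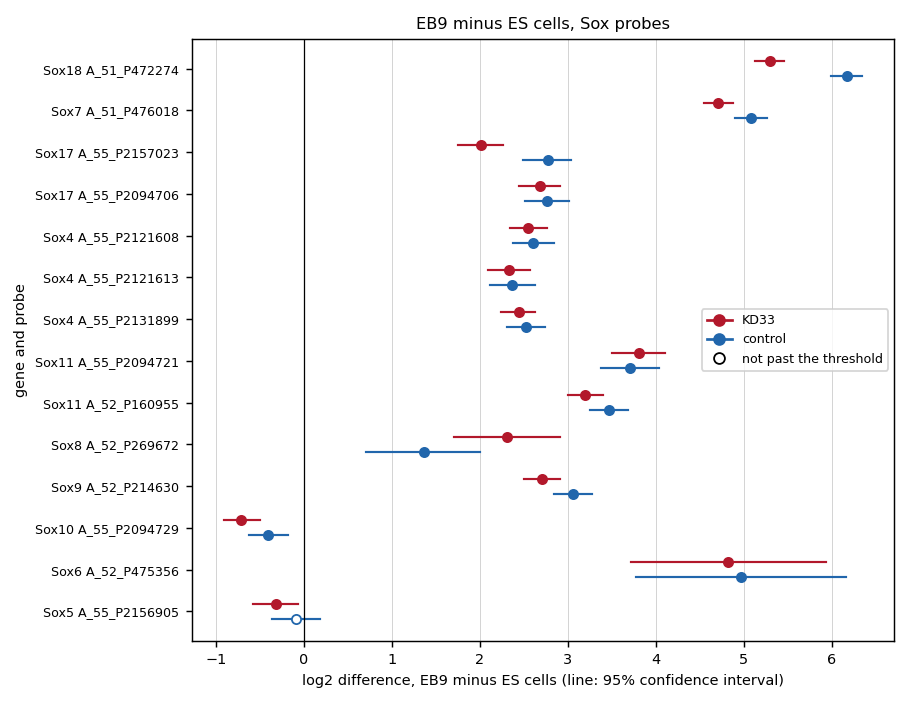
EB9 minus ES log2 difference (horizontal axis) of the 14 kept Sox probes in KD33 and in control, with 95% confidence intervals; filled points passed the threshold. All probes of 8 genes lie to the right of 0, Sox10 to the left in both, and the Sox8 and Sox6 points rest on ES levels that were at or below background on all or nearly all arrays.

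Gene lists for the settings in which these factors work gave context for the same comparison, by the brightest kept probe of each gene. In EB9 control minus ES control, 33.2% of all genes were higher and 41.5% lower, with a median difference of −0.14. For endothelium, the setting of group F, 14 of 15 genes were higher, none lower, with a median of 3.23. Cdh5 and Emcn, surface proteins of vessels, were at least 263-fold and at least 88-fold higher in EB9, with no ES control array above background. Of 21 endoderm genes 19 were higher and 1, Lama1, lower (median 3.06), with Afp and Ttr, secreted by visceral endoderm, at least 434-fold and at least 209-fold higher. The other settings were more mixed or went down. Of 14 neural crest genes measured, 8 were higher and 5 lower (median 1.79), led by Msx1 (5.42) and Ets1 (5.01), both also expressed in mesoderm. Among the 5 lower were Foxd3 (−4.54), above background on 1 of 4 EB9 control arrays, and Mitf (−2.85). Of 11 cartilage genes, 4 were higher and 5 lower (median −0.2). Hapln1 was at least 86.9-fold higher and Col9a1 stood at 7.46, above background on 1 of 3 ES control arrays. The 5 lower were Acan (−2.79), Matn3 (−2.6), Col9a3 (−1.91), Comp (−1.28) and Col9a2 (−0.99). Of 10 neurogenesis genes none was higher and 7 were lower (median −1.56), with Elavl3, a neuronal RNA-binding protein, at −4.78 and Stmn2 at −3.14. All 9 genes of embryonic red cells were higher (median 5.2). Among 9 other Sox genes measured, Sox3 and Sox12 were higher and Sox1, Sox2, Sox15 and Sox30 lower, with Sox2, the pluripotency factor, at −3.69. Some of these genes have other uses, and endothelium and endoderm cannot be separated from each other in RNA of whole bodies.

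In EB9, the KD33 arrays had lower levels of the 3 group F genes and a higher level of Sox4 than controls, while neither Cbx7 probe passed there. Sox7, Sox17 and Sox18 were lower, 3 of the 10 genes, where 7.47% of all genes were lower. Sox4 was higher, where 8.95% of all genes were, and the other 6 genes did not pass. The median difference was −0.02 over the 14 member probes and −0.01 over all probes.

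Sox17 had the largest decrease, −0.58 (SE 0.12; adjusted p = 0.00706; 95% interval −0.83 to −0.32) by A_55_P2157023 and −0.68 (SE 0.11; adjusted p = 0.00164) by A_55_P2094706, which is 1.49-fold and 1.6-fold lower. By both probes every EB9 KD33 array lay below every EB9 control array. The difference held within each of the 4 slides, −0.68 to −0.4 and −0.8 to −0.56. Sox18 was lower by −0.42 (SE 0.08; adjusted p = 0.00387), or 1.34-fold, and Sox7 by −0.37 (SE 0.08; adjusted p = 0.00801), or 1.29-fold. Neither gene's groups overlapped, and within slides Sox18 differed by −0.57 to −0.25 and Sox7 by −0.51 to −0.24. Fitted on the EB9 arrays alone, Sox7 (adjusted p = 0.0532) and A_55_P2157023 (0.0585) missed the threshold, and Sox18 and A_55_P2094706 passed.

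Sox4 was higher in EB9 KD33 by 0.33, 0.49 and 0.36 on its 3 probes (adjusted p = 0.0404, 0.0123 and 0.0196), 1.25-fold to 1.4-fold. The difference was positive on all 4 slides for each probe, 0.23 to 0.43, 0.24 to 0.69 and 0.27 to 0.41. A fit on EB9 arrays alone ended all 3 calls (adjusted p = 0.163, 0.0815 and 0.0672). With normexp background correction A_55_P2121608 (adjusted p = 0.0865) and A_55_P2131899 (0.0566) missed the threshold, as they did on the authors' deposited values (0.0724 and 0.0694). With no filter on dim probes A_55_P2121608 missed it (0.0737). A_55_P2121613 passed under those 3 alternatives. A_55_P2121608 also lost its call when any of 11 of the 15 arrays was left out, and A_55_P2131899 without EB9 KD33 1, EB9 KD33 4 or EB9 control 3.

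Sox8 had the largest positive difference in EB9, 0.81 (SE 0.28; 95% interval 0.21 to 1.41), with an adjusted p of 0.0689 in limma. Within slides it was 0.74, 0.72, 1.07 and 0.72, and with the slide as a block it passed (0.81, adjusted p = 0.005), as it did without ES KD33 2 or without EB9 KD33 2 (adjusted p = 0.0279 and 0.025). Sox6, Sox9, Sox10, Sox11 and Sox5 did not pass in EB9, with or without that block. Their intervals bound the difference at −0.31 to 0.1 for Sox9, −0.23 to 0.18 for Sox10, −0.33 to 0.32 over both Sox11 probes and −0.09 to 0.41 for the Sox5 probe. For Sox6 the interval, −1.13 to 1.08, rests on a spread shared by all 4 groups, ES cells included, while the EB9 values differed by −0.05 to −0.01 within slides.

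**Figure D3:**
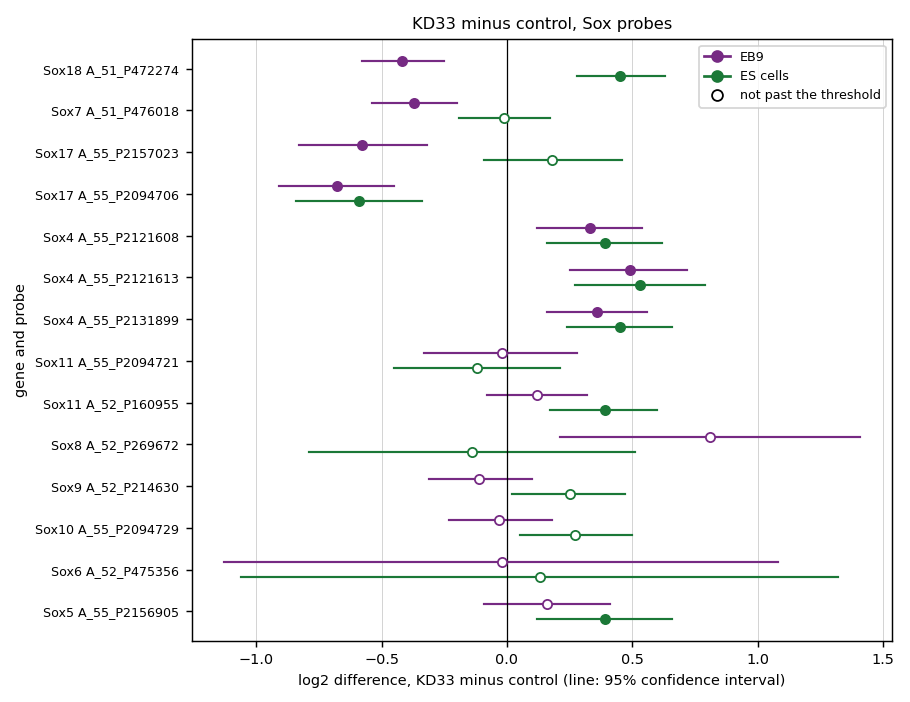
KD33 minus control log2 difference (horizontal axis) of the 14 kept Sox probes in EB9 and in ES cells, with 95% confidence intervals; filled points passed the threshold. Sox18 stands at −0.42 in EB9 and 0.45 in ES cells, the 3 Sox4 probes lie to the right of 0 in both, and the Sox17 probes lie to the left in EB9 but on opposite sides in ES cells. The ES points of Sox8 rest on levels below background, and those of Sox6 on levels above it on 1 of 7 arrays.

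The same lists were set beside the EB9 comparison of KD33 with control, in which by the brightest probe 7.74% of all genes were higher and 6.98% lower (median −0.01). Of 15 endothelial genes none was higher and 3 were lower (median −0.16): Etv2, the early inducer of the lineage, at −0.99, Eng at −0.59 and Cldn5. Of 21 endoderm genes none was higher and 7 were lower (median −0.16), with Cubn, an endocytic receptor of visceral endoderm, at −1.28 and Cer1, a secreted inhibitor of Nodal, at least 2.83-fold lower with no EB9 KD33 array above background. Neural crest genes had 1 higher, Ets1 (0.36), and 5 lower of 14 (median −0.31), led by Msx2 (−0.88) and Tfap2a (−0.87). No cartilage gene of 11 and no red cell gene of 9 passed (medians −0.17 and 0.19), and of 10 neurogenesis genes Elavl3 was higher (0.69; median of the list −0.14). Of 9 other Sox genes Sox15 was higher (0.35) and Sox3 lower (−0.99; median of the list 0.08). Markers of the ES state also differed, 3 of 10 being higher and none lower (median 0.14), with mean levels of 0 to 0.23 in EB9 KD33, against −0.24 to 0.12 in EB9 control. Of 9 measured markers of differentiated bodies none was higher and 4 were lower (median −0.42). The 4 were T (−2.79), Fgf8 (−1.35), Eomes (−0.89) and Hand1 (−0.42). Fibroblast markers did not move as a list: 1 of 8, Thy1, was lower (−0.56), and their mean level was 2.17 to 3.01 in EB9 KD33, against 2.24 to 2.87 in EB9 control. What part any cell type had in the Sox differences was not tested.

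In ES cells, Sox4, Sox18, 1 of 2 Sox11 probes and the A and G probe of Sox5 were higher with KD33, and the Sox17 probes disagreed. By the rule that a gene counts where a probe passes and none passes the other way, 4 of 10 genes were higher (Sox4, Sox5, Sox11 and Sox18) and 1 lower (Sox17), where 23.5% of all genes were higher and 17.8% lower. The median over the 14 member probes was 0.26, and over all probes 0.05. With 1 probe a gene, 3 passed, all higher.

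Sox4 was higher by 0.39, 0.53 and 0.45 (SE 0.1 to 0.12; adjusted p = 0.0101, 0.00347 and 0.00278), 1.31-fold to 1.44-fold, with no overlap on any of its 3 probes. Within the 3 slides that held both groups, the differences were 0.36 to 0.41, 0.41 to 0.62 and 0.32 to 0.45. Sox18 was higher by 0.45 (SE 0.08; adjusted p = 0.000786), 1.37-fold, and by 0.38, 0.48 and 0.51 within slides. For both genes each of the 15 fits that left out an array kept the call.

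Sox11 passed by A_52_P160955 (0.39, SE 0.1, adjusted p = 0.00821), with 0.28, 0.56 and 0.46 within slides. The other probe, 546 bases away, read −0.12 (SE 0.15; adjusted p = 0.606; 95% interval −0.45 to 0.21), with −0.08, −0.06 and −0.12 within slides. The probes therefore differed in ES cells on every shared slide, and a direction for Sox11 there depends on which is read.

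Sox17 was lower by A_55_P2094706 (−0.59, SE 0.12, adjusted p = 0.0013), with −0.8, −0.33 and −0.58 within slides. A_55_P2157023 read 0.18 (SE 0.13; adjusted p = 0.29), with 0.19, 0.32 and 0.13 within slides, and passed as higher with the slide as a block (0.21, adjusted p = 0.0424). Both probes carry the same transcript accession in the files, and both fell in EB9. No direction for Sox17 in ES cells can be given from these probes together.

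**Figure D4:**
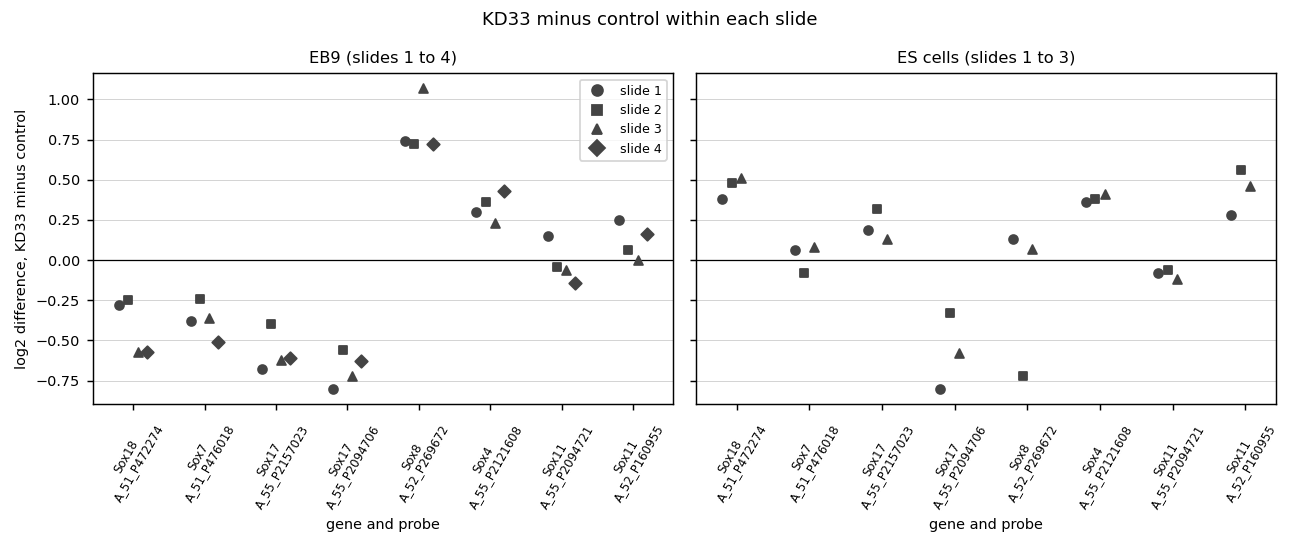
KD33 minus control log2 difference within each slide (vertical axis) for 8 Sox probes, in EB9 on slides 1 to 4 and in ES cells on slides 1 to 3; each marker is 1 slide, with 1 array of each group. The Sox17 probes lie on the same side of 0 in EB9 and on opposite sides in ES cells, and Sox8 is above 0.7 on all 4 slides in EB9, with its ES points drawn from levels below background.

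The Sox5 probe A_55_P2156905 was higher by 0.39 in ES cells (SE 0.13; adjusted p = 0.0269). Of the 22 kept probes made only of A and G, this one included, 19 had a higher mean in ES KD33 than in ES control, with a median of 0.31. In EB9 20 did, with a median of 0.21. The medians of all probes were 0.05 in ES cells and −0.01 in EB9. The Sox5 call ended with quantile normalization (0.29, adjusted p = 0.0813) and without ES KD33 4, ES control 3 or ES control 4 (adjusted p = 0.0775, 0.0881 and 0.0803). Sox9 (0.25, adjusted p = 0.0766) and Sox10 (0.27, adjusted p = 0.0514) did not pass. With the slide as a block both passed as higher, Sox9 at 0.24 (adjusted p = 0.0415) and Sox10 at 0.32 (adjusted p = 0.0047), as they did with quantile normalization (adjusted p = 0.0347 and 0.0015) and in a fit on ES arrays alone (0.0293 and 0.00769). Sox7 differed by −0.01 (95% interval −0.19 to 0.17). For Sox8, below background in both groups, and for Sox6, above it on ES control 4 alone, no fold is given in ES cells. The Sox6 call that appeared without ES control 4 rests on levels below background in both groups.

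Among the lists in ES cells, 21.9% of all genes were higher and 16.4% lower by the brightest probe, with a median of 0.04. Other Sox genes had 3 of 9 higher and none lower (median 0.14): Sox3, a group B1 neural factor, at 1.53, Sox12, the remaining group C gene, at 0.8, and Sox15. Of 15 endothelial genes 3 were higher and 5 lower (median 0.14), with Robo4 at −1.58 and Cldn5 at 1.05. Of 21 endoderm genes 2 were higher and 9 lower (median −0.19), led by Cubn (−1.33) and Hnf4a (−1.11), and the 9 include Afp, which was below background in both groups. Neurogenesis genes had 4 higher and 1 lower of 10 (median 0.38), with Neurod1 at 1.62, above background on 1 of 3 ES control arrays, and Insm1 at 1.53. Of 11 cartilage genes 3 were higher (median 0.36), with Comp at 1.05 and Col11a1 at 0.62. Of 14 neural crest genes Msx1 was higher (0.81) and Mitf lower (−0.71; median of the list −0.07), and of 9 red cell genes Tal1 was higher (0.91; median of the list −0.17). Of 10 markers of the ES state 1 was higher and 3 were lower (median −0.15), and 1 of 8 fibroblast markers, Col1a1, was lower (−0.42; median of the list 0.12). Of 9 measured markers of differentiated bodies 4 were higher and 3 lower (median 0.36).

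The difference between the KD33 effects at the 2 stages was tested as an interaction in the same fit. Sox7, Sox17 and Sox18 had a lower effect in EB9 than in ES cells, 3 of 10 genes, where 18.1% of all genes did. None of the members had a higher one, where 14% of all genes did. For Sox18 the interaction was −0.87 (SE 0.11; adjusted p = 0.000114), from −0.42 in EB9 and 0.45 in ES cells, and it was −0.66, −0.73 and −1.08 on the 3 slides with all 4 groups. For Sox17 it was −0.76 (SE 0.17; adjusted p = 0.0052) by A_55_P2157023 but −0.08 (SE 0.16; adjusted p = 0.755) by A_55_P2094706, the probe that was lower in ES cells too. For Sox7 it was −0.37 (SE 0.11; adjusted p = 0.028), and this call ended on the authors' deposited values (adjusted p = 0.0572), with no filter (0.0514) and when any of 5 arrays was left out (ES KD33 1, ES control 4, EB9 KD33 4, EB9 control 3 or EB9 control 4; −0.35 to −0.3). With the slide as a block Sox9 (−0.35, adjusted p = 0.0361) and Sox10 (−0.34, adjusted p = 0.0177) passed as well, as they did with quantile normalization (adjusted p = 0.0268 and 0.00421). In the main limma fit, without the block, neither passed (adjusted p = 0.0755 and 0.133). No interaction is given for Sox8, whose ES levels were below background in both groups. For Sox4 the interaction was −0.06, −0.04 and −0.09 on its 3 probes, with 95% intervals that together span −0.39 to 0.31.

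For the 3 members with the widest range of group means, the kept probes of other named genes with the most similar profile were found by the root mean square difference of centred levels over 15 arrays. For Sox18 these were Stab1 (0.17), Pmp22 (0.2) and Asb12 (0.2). Asb12 averaged −8.77 in ES KD33 and −9.03 in ES control. Both lie under the lowest level well above background on the ES arrays (−6.93 to −6.45), so its likeness rests on unmeasured ES levels. Stab1 averaged 0.88 in EB9 KD33, 1.11 in EB9 control, −4.75 in ES KD33 and −4.9 in ES control. For Sox7 they were Amot (0.15), Car14 (0.16) and Lhfpl2 (0.17), and Amot averaged 3.93 in EB9 KD33, 4.44 in EB9 control, −0.82 in ES KD33 and −1.02 in ES control. For Sox6, whose ES levels were mostly below background, the nearest were farther off: Gas1 (0.5), Tnnt3 (0.5) and Gimap4 (0.51).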

How the data were processed

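Cy3-labelled cRNA from 500 ng of total RNA per sample was hybridised, per the labels. The authors extracted the scans with Agilent Feature Extraction 10.7.3.1, per the file headers, and the deposited intensity is its background-corrected processed signal, with the software's background and outlier flags. Each array had 44397 features, 43020 of them not controls, and its 75th percentile ranged from 1483.2 to 2531.1. Between 62.5% and 75.4% of features were well above background and none was saturated. The authors also deposited log2 values, which equal normexp correction (offset 50) with quantile normalization within 0.000154 and served as an alternative.

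Here log2 intensities were reduced by each array's 75th percentile, flagged spots were dropped and spots of a probe averaged. Under R 4.3.3, limma 3.58.1 fitted 4 group means over 15 arrays (11 residual and 1.66 prior degrees of freedom), adjusting over all kept probes; the script was tested on simulated data. Biological replicates are so named in the labels, with no word on separate cultures, so p-values measure only the spread between these samples, and the number of arrays limits the precision. A bound on a fold sets the mean of the measured group against the lowest signal well above background on each array of the other. For lists, a gene is its brightest kept probe, with old symbols updated through RefSeq names. Members, lists and alternatives were chosen with earlier results of these data known. All members are named; of each list, up to 2 passing genes with the largest change, and others named beside a count of 5 or fewer, chosen after their values were seen. Arrays of different groups correlated in their deviations from group means at a median of 0.41 on the same slide (21 pairs, 0.21 to 0.6) and 0.32 at the same replicate number (−0.56 to 0.55), so slides, read from the headers, pair the arrays and numbers do not. The slide equals the number except for ES controls 2, 3 and 4, on slides 1, 2 and 3. Alternatives were normexp, quantile normalization, the deposited values, other filters, blocks, only the groups contrasted, 1 probe a gene, and each array left out.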

Additional observations from a re-analysis of the deposited data

Results flagged for a closer look

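The Sox9 probe read −2.82 in EB9 control 1, apart from the other 3 arrays of its group (−2.55 to −2.53), and its 10 spots there had an SD of 0.12; 1 of 42 groups of 4 arrays stood out in this way, and chance marks about 5% of such groups. The KD33 effect differed between EB9 and ES cells for Sox7 (−0.37), for Sox17 by A_55_P2157023 (−0.76) and for Sox18 (−0.87), each by the interaction test.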

How the results depend on the processing

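No member's call reversed under any alternative. The numbers of probes and of members past the threshold in EB9 against ES cells stayed within 1.5 times under all alternatives. In EB9, 3852 probes passed for KD33 against control, 6939 with the slide block, 1263 with only the groups contrasted, and 2096 to 5448 with an array left out (lowest without EB9 KD33 4, and 2179 without EB9 KD33 3, 2531 and 2413 without EB9 control 3 and 4). Of the members 4 passed there, 2 with only the groups contrasted, and 4 to 5 with an array left out. In ES cells 5 members passed, 3 with 1 probe a gene, and 4 to 6 with an array left out. For the interaction 3 members passed, 5 with quantile normalization, 5 with the replicate block, 6 with the slide block, and 2 to 5 with an array left out (5 without EB9 KD33 2). The replicate block called Sox9 and Sox10 in ES cells, Sox8 in EB9 and Sox8 and Sox9 in the interaction, and ended no member's call. Wherever Sox8 is among the interaction calls (both blocks, and without EB9 KD33 2), its ES levels were below background and it is not read as a difference between stages. Of 1050 member values with an array left out, 24 lost their call and 11 gained one. The median of all probes in EB9 minus ES cells was −0.17 in KD33 and −0.13 in control, and −0.07 and −0.06 with quantile normalization; against this shift Sox5 has no settled direction and Sox10 is lower under every scaling. Levels below background limit Sox6 and Sox8 in ES cells and the aligned Sox5 probe.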
